A study of Mus musculus with 4 samples.

Results

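The transcripts of 9 myogenic transcription factors were followed in mouse primary myotubes treated with ectodysplasin A2 (EDA-A2), the ligand of the TNF receptor superfamily member EDA2R. The 9 genes (Myod1, Myog, Myf5, Myf6, Mef2a, Mef2c, Mef2d, Pax7 and Six4) were taken by name from the 53647 genes of the count tables, and all 9 were among the 15173 genes that passed the filter on low counts. Wild-type myoblasts from limb muscles of pups aged 2 to 3 days were differentiated into myotubes and harvested at 72 h. The EDA-A2 condition had received recombinant EDA-A2 at 250 ng/mL for the last 24 h, and the control condition had not, with 2 libraries in each. The strain of the pups and the content of the control medium are not given in the sources used here, and these are cultures in a dish without nerve, vessels or tumour.

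Skeletal muscle cells are committed and differentiated by a small network of transcription factors. The myogenic regulatory factors (MRFs) Myod1, Myf5, Myog and Myf6 are basic helix-loop-helix proteins that pair with E proteins and bind the E-box in muscle genes. PAX7 marks satellite cells and myoblasts, homeobox proteins such as SIX4 act upstream of the MRFs through the MEF3 motif, and MEF2 proteins work with the MRFs on late muscle genes. In the usual order, Myf5 and Myod1 mark myoblasts, Myog rises as cells enter differentiation, and Myf6 (also called Mrf4) is the MRF that remains high in mature fibres.

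Of the 9 factors, 1 fell after EDA-A2 and 8 did not pass the test. Myf6 transcripts fell to 0.646-fold of control (95% interval 0.522 to 0.799). With quasi-likelihood tests in edgeR and Benjamini-Hochberg adjustment over all genes tested, 4.57% of genes passed an adjusted p of 0.05, 371 of them higher and 323 lower. Scaled to total counts, that split was 485 higher and 194 lower. The members' share, 1 of 9, stands against a background of 2.13% of genes called lower and 2.45% called higher. Fitted log2 fold changes were negative for 7 members and positive for Mef2a and Six4, and their median was -0.17, beside -0.00 over all genes tested. Normalized counts of the conditions did not overlap for 7 of 9 members, where 45.0% of all tested genes show no overlap. At an unadjusted p under 0.05 there were 4 members (Myf6, Mef2a, Mef2c and Pax7), beside 15.6% of all genes tested.

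**Figure D1:**
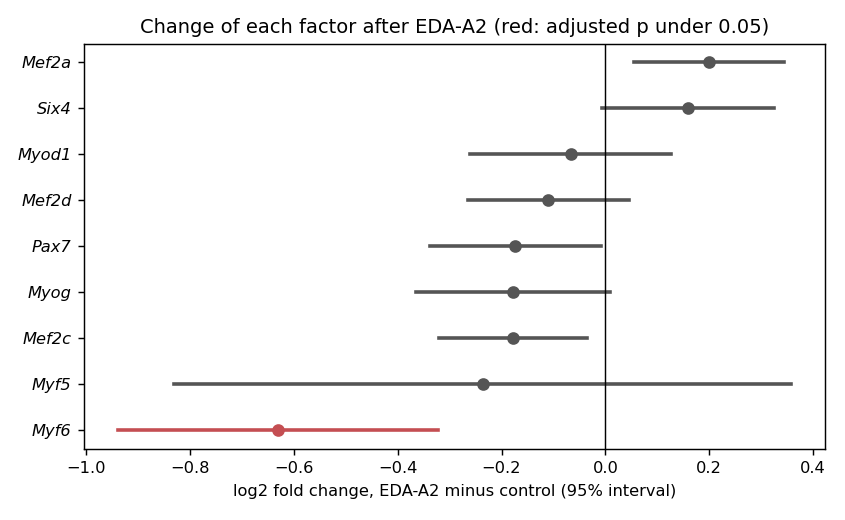
Log2 fold change (EDA-A2 minus control, horizontal axis) of the 9 factors with its 95% interval from the edgeR fit; red marks an adjusted p under 0.05. Myf6 is the only member past the threshold, at -0.63, and the intervals of Mef2a, Mef2c and Pax7 leave out 0 before adjustment.

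Libraries held 29444155 to 29746863 counts on genes, so depth differed by 1.03% at most, and a count of 0 allows up to 3 counts, 0.101 to 0.102 CPM (counts scaled to library size), counting error only. Normalized counts below are counts scaled to the mean library size after TMM factors of 0.972 to 1.03. In these bulk libraries, fewer cells of a type and less RNA per cell cannot be told apart. Myotube genes were abundant in each library. A list of 8 (Ttn, Actn2, Neb and others) summed to 12427 to 12929 CPM in control and 10537 to 11022 CPM after EDA-A2. Fitted log2 fold changes were negative for all 8, and 2 were called lower (Actn2 and Myh8), beside 2.13% of all genes tested. Transcripts of dividing cells were also present in all libraries, as a list of 10 genes summed to 964 to 1124 CPM in control and 1042 to 1060 CPM in EDA-A2 libraries, and 0 of the 10 passed in edgeR (0 also at an unadjusted p under 0.05, and 0 by DESeq2). The part of dividing cells in the values below was not tested.

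Pax7 and Six4 stand at the top of the network. Pax7 (ENSMUSG00000028736, chromosome 4 from 139464373 to 139560839 of GRCm39) had 1356 and 1352 normalized counts in control libraries and 1169 and 1232 in EDA-A2 libraries. Both EDA-A2 libraries lay below both controls, and the mean changed by -11.3%. The log2 fold change was -0.17 (95% interval -0.34 to -0.01), and it did not pass after adjustment (adjusted p = 0.286). Six4 (ENSMUSG00000034460, chromosome 12 from 73146383 to 73160230), a homeobox gene, had 1775 and 1964 normalized counts in control and 2008 and 2166 in EDA-A2 libraries. The conditions did not overlap, but the lower EDA-A2 library was close to the higher control, and the log2 fold change of 0.16 (-0.01 to 0.32) did not pass (adjusted p = 0.353).

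**Figure D2:**
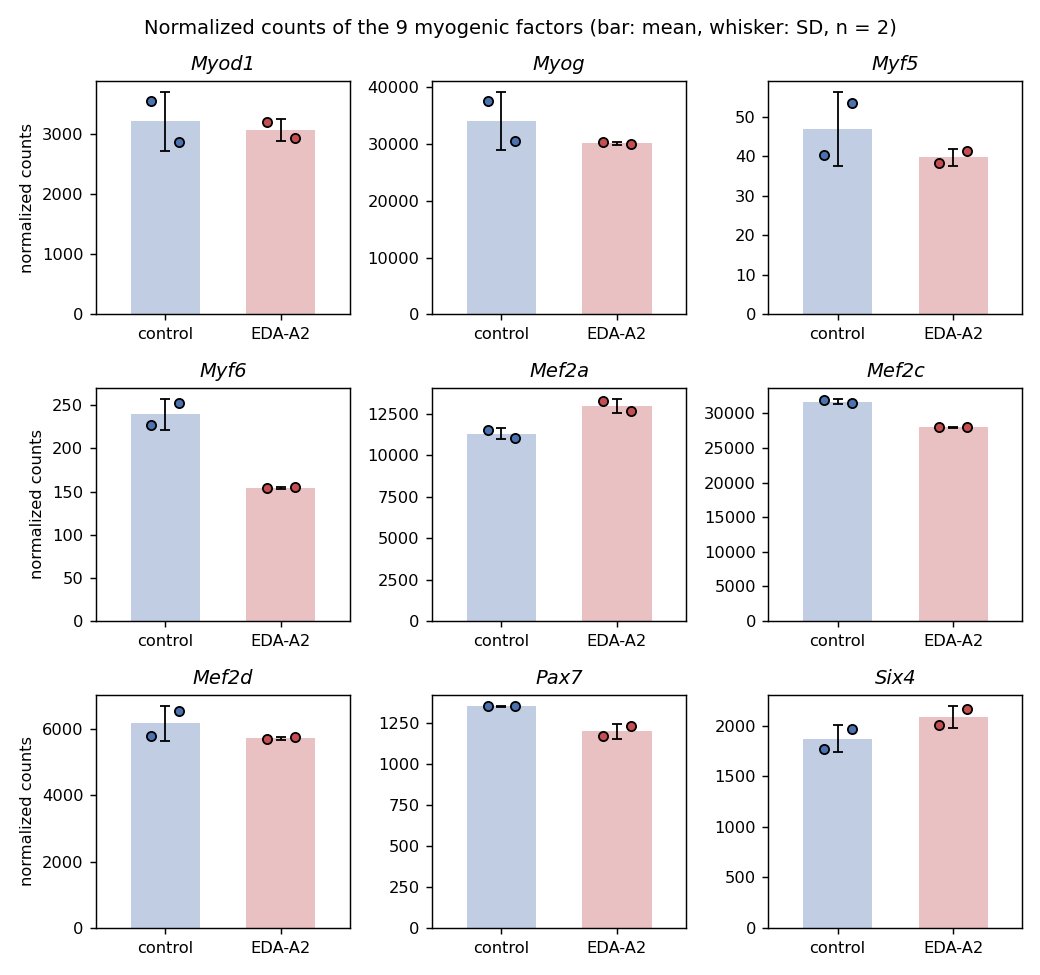
Normalized counts (vertical axes, each from 0) of the 9 factors in the 2 control and 2 EDA-A2 libraries; points are libraries, bars means and whiskers SD. For Myf6 both EDA-A2 libraries (154 and 155) lie below both controls (227 and 252), whereas for Myod1 and Myf5 the conditions overlap.

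Among the MRFs, Myf6 (ENSMUSG00000035923, chromosome 10 from 107328712 to 107330656 on the minus strand) carried the only call. It had 220 and 250 counts in control and 157 and 158 after EDA-A2. After normalization the means were 239 ± 18.0 and 155 ± 0.982 (SD, n = 2), and the EDA-A2 libraries lay below both controls. The log2 fold change was -0.63 (standard error 0.14, 95% interval -0.94 to -0.32, adjusted p = 0.0195 by edgeR), and its p ranked 451 among all genes tested. This call rested on modest counts and on all 4 libraries: with any library left out the log2 fold change stayed between -0.70 and -0.55, but the adjusted p was 0.288 without control replicate 1, 0.221 without control replicate 2, 0.122 without EDA-A2 replicate 1 and 0.129 without EDA-A2 replicate 2. DESeq2's Wald test gave an adjusted p of 0.0797, and the edgeR fit on every gene with at least 1 count gave 0.132. Over the 9 settings that kept all libraries, the adjusted p ranged from 0.00914 to 0.132, and 7 of them called Myf6.

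Myf5, the neighbour of Myf6 on chromosome 10 (ENSMUSG00000000435, from 107318769 to 107321995, same strand, 6716 bases away), was the least abundant member. Its counts were 39 and 53 in control and 39 and 42 in EDA-A2 libraries, which overlap. At this depth the log2 fold change of -0.24 had a 95% interval of -0.83 to 0.36 (adjusted p = 0.778), wide enough to hold both a fall of the size seen for Myf6 and a small rise. It was -0.42 without control replicate 1 and -0.01 without control replicate 2 (lowest and highest with 1 library left out).

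Myod1 (ENSMUSG00000009471, chromosome 7 from 46025870 to 46028526), which can convert other cells to muscle, had 3545 and 2859 normalized counts in control and 3186 and 2928 in EDA-A2 libraries. The control libraries differed from each other by more than the conditions did, and both EDA-A2 values lay between them. The log2 fold change was -0.07 (-0.26 to 0.13, adjusted p = 0.817), and without control replicate 1 it was 0.10.

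Myogenin, encoded by Myog (ENSMUSG00000026459, chromosome 1 from 134217707 to 134220287), had 37627 and 30445 normalized counts in control and 30283 and 29906 in EDA-A2 libraries. Control replicate 1 was highest, and control replicate 2 lay just above the EDA-A2 libraries. A log2 fold change of -0.18 (-0.36 to 0.01, adjusted p = 0.360) was -0.01 without control replicate 1 and -0.32 without control replicate 2, so its size depended on control replicate 1.

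The upstream sequences of the MRF that fell and of the most abundant MRF show which of the network's own motifs sit next to each start. The windows are the 200 bases before the annotated start of the canonical GENCODE transcript in GRCm39, chr10:107330657-107330856 on the minus strand for Myf6 and chr1:134217507-134217706 on the plus strand for Myog, and capitals mark matches on either strand to the E-box (CANNTG), the MEF3 motif (TCAGGTT) or the ends of the MEF2 site (CTANNNNTA).
Myf6: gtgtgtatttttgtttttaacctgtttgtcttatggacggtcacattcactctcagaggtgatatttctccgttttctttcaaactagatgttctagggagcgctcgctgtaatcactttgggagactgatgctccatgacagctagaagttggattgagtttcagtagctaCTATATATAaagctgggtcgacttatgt
Myog: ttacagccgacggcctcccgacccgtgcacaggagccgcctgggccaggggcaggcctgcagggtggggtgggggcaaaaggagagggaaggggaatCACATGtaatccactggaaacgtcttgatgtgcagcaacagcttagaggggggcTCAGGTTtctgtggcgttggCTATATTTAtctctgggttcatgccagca
Counted from -1 at the last base before the start, Myog holds an E-box at -103 (CACATG), a MEF3 match at -49 and a MEF2 match at -29 (CTATATTTA). Myf6 holds a MEF2 match alone, at -28 (CTATATATA), and those letters overlap 5 matches, on the 2 strands together, to TATANA, letters of the TATA box. Over 21770 such windows of protein-coding genes, 56.0% hold an E-box, 2.77% the MEF3 letters, 14.4% the MEF2 letters and 16.9% TATANA. Among the 9 members, 3 hold an E-box (Myod1, Myog and Pax7), 1 MEF3 and 3 the MEF2 letters (Myog, Myf5 and Myf6). A match is a run of letters and not a bound site, and enhancers outside these windows were not searched.

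The MEF2 genes encode MADS-box factors that cooperate with the MRFs. Mef2a (ENSMUSG00000030557, chromosome 7 from 66880911 to 67022606) had 11544 and 11059 normalized counts in control and 13271 and 12692 in EDA-A2 libraries, and Mef2c (ENSMUSG00000005583, chromosome 13 from 83652064 to 83815555) had 31983 and 31445 against 28063 and 27984. In both genes the conditions were separate and replicates were close, and the means changed by 14.9% for Mef2a and -11.6% for Mef2c. Neither passed after adjustment over all genes. For Mef2a the log2 fold change was 0.20 (0.06 to 0.34, adjusted p = 0.125), and when libraries were scaled to total counts it was 0.26 and passed (adjusted p = 0.0404), with a range of 0.0404 to 0.332 over the settings that kept all libraries. For Mef2c it was -0.18 (-0.32 to -0.04, adjusted p = 0.177). Mef2d (ENSMUSG00000001419, chromosome 3 from 88049185 to 88079398) had 5785 and 6535 normalized counts in control and 5682 and 5735 in EDA-A2 libraries, with a log2 fold change of -0.11 (-0.26 to 0.04, adjusted p = 0.539). For Mef2d the conditions did not overlap, but the control libraries differed by more than the means of the conditions.

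The ratio of Mef2a to Mef2c does not depend on how libraries are scaled. On the log2 scale it was -1.47 and -1.51 in control and -1.08 and -1.14 after EDA-A2, a difference of 0.38 between the means. Both EDA-A2 libraries had more Mef2a per Mef2c than both controls. Per length, with the union of a gene's exons as its length, Mef2a made up 22.1% and 21.0% of the transcripts of the 3 MEF2 members in control and 26.5% and 25.6% after EDA-A2, and Mef2c 55.5% and 54.0% against 50.6% and 51.0%. This pair was singled out after its values were seen and was not tested. With 2 libraries against 2, an exact two-sided permutation test of a single ratio cannot give a p below 0.333.

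Read pairs from overlapping exons could have been set aside as ambiguous or counted for the other gene. The strand option of the counting is not given in the sources used here. Mef2a shares 1081 exonic bases with Lysmd4 on the opposite strand, which had 372 to 461 counts, against 10967 to 13539 for Mef2a. Mef2d shares 543 with the long noncoding RNA 1700113A16Rik, which had 11 to 28 counts, and 181 with Gm56779, not analysed here. The exons of Myf6, Myf5, Myod1, Mef2c, Pax7 and Six4 overlap no other annotated exon, and Myog shares 22 bases with the long noncoding RNA Gm32221, not analysed here.

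Compared per length, as TPM (a transcript's share of its library after division by length), the members ranged from 3.54 to 3527 in control means. In control libraries the mean level was highest for Myog, at 3527 ± 483 TPM (SD, n = 2), followed by Mef2c (291 ± 0.0737) and Myod1 (266 ± 37.1), whose levels did not differ beyond the spread of Myod1. Mef2d (126 ± 12.4) and Mef2a (115 ± 2.07) came next and likewise lay within the spread of Mef2d. Pax7 had 36.3 ± 0.376 TPM, and Six4 (27.1 ± 2.27) and Myf6 (26.6 ± 2.32) were level with each other. Myf5 was last, with 3.54 ± 0.751 TPM. After EDA-A2 the mean levels were 3301 TPM for Myog, 139 for Mef2a, 124 for Mef2d, 32.0 for Six4 and 18.2 for Myf6. With this length, Six4 then exceeded Myf6 and Mef2a exceeded Mef2d by more than their spread. The length matters for the MEF2 genes, which have many alternative exons, and for Six4. With the longest transcript as length, control levels were 493 TPM for Mef2c, 213 for Mef2a and 114 for Mef2d. Mef2a was then above Mef2d in control too, and it did not differ from Myod1 (189 ± 26.2) beyond the spread of Myod1. By that length Six4 had 30.6 ± 2.58 TPM in control, above Myf6 (18.9 ± 1.66) and Pax7 (25.8 ± 0.282).

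**Figure D3:**
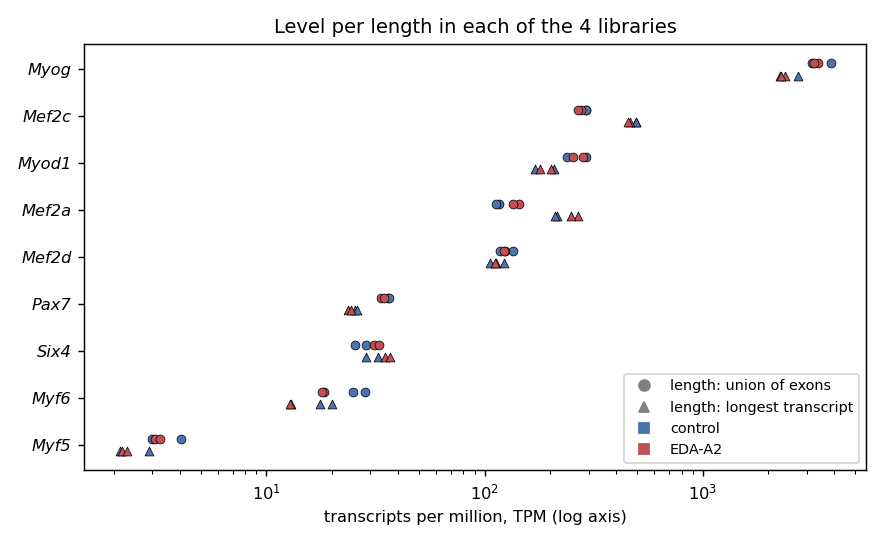
Level per length (TPM, log axis) of the 9 factors in the 4 libraries, with the union of exons (circles) or the longest transcript (triangles) as length and colour for the condition. Myog is highest and Myf5 lowest by both lengths, and Mef2a, Mef2c and Six4 move up with the shorter length.

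Within the 4 MRFs, Myog made up 92.4% and 92.1% of transcripts per length in control and 91.7% and 92.2% in EDA-A2 libraries. Myf6 made up 0.596% and 0.817% in control and 0.499% and 0.513% after EDA-A2, below both controls. The log2 ratio of Myog to Myf6 was 7.38 and 6.92 in control and 7.62 and 7.59 in EDA-A2 libraries. The conditions did not overlap, and the means differed by 0.46. The ratios of Myod1 and Myf5 to Myf6 did not overlap either, with differences of 0.57 and 0.41. Among ratios without Myf6, Myod1 to Myog did not overlap, and Myod1 to Myf5 and Myog to Myf5 did. These ratios were not tested, and those with Myf6 rest on the same Myf6 counts as its call. Control replicate 1 had the higher Myog and the lower Myf6 of the control libraries.

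Among 2344 other protein-coding genes of similar abundance (mean within 2-fold), those whose values over the 4 libraries were most like Myf6 were Scx, Dock3 and Dock8. Likeness was measured as the root mean square difference of log2 CPM centred on each gene, which was 0.032, 0.042 and 0.051. Scx, which encodes the tendon factor scleraxis, had 398 and 417 normalized counts in control and 264 and 270.3 in EDA-A2 libraries (log2 fold change -0.61, adjusted p = 0.00535 by edgeR). Dock3 passed as well (-0.58, adjusted p = 0.0290) and Dock8, at -0.59, did not (adjusted p = 0.0733). These genes were chosen for their likeness to Myf6 in the same libraries, so their direction and calls are a description and no separate evidence.

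The genes around these factors were examined as lists, 99 genes in all with 91 tested. Of these, 4 rose and 17 fell (6 and 12 when libraries were scaled to total counts). Over all genes tested 2.45% were called higher and 2.13% lower, and these shares stand beside the calls of each list below. E proteins, the dimer partners of the MRFs, showed no call: the log2 fold changes were 0.04 for Tcf3 (-0.12 to 0.19), 0.01 for Tcf4 (-0.13 to 0.15) and -0.04 for Tcf12 (-0.18 to 0.10). Of 14 inhibitors of the MRFs, 13 were tested and 1 rose, Id4, whose product belongs to the ID proteins that bind E proteins but not DNA. Id4 had 36 and 69 counts in control and 123 and 118 in EDA-A2 libraries, with both EDA-A2 libraries above both controls. The estimate of 1.14 on the log2 scale had a standard error of 0.25 (adjusted p = 0.0168 by edgeR), but it was 0.77 without control replicate 1 and 1.67 without control replicate 2, neither called. The more abundant Id2 and Id3 had log2 fold changes of 0.22 and -0.27, Bhlhe40 0.18, Zeb1 0.17 and Snai1 -0.28, none past adjustment (adjusted p from 0.191 to 0.316).

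Of 12 other homeobox, PAX, EYA and DACH factors upstream of the MRFs, 8 were tested and 0 passed in edgeR, with 1 at an unadjusted p under 0.05. It was Eya4, which encodes a coactivator of homeobox proteins, with normalized counts of 4455 ± 481 in control and 3817 ± 199.7 after EDA-A2 (-0.22 on the log2 scale, adjusted p = 0.154). DESeq2's Wald test called 0 of the 8 genes as well. The values of Eya1, Pax3, Six2, Six5 and Eya3 were -0.11, -0.13, 0.11, 0.04 and 0.01.

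Among 16 genes of MEF2 regulation, which includes the remaining family member Mef2b (15 to 20 counts), 1 fell and 1 rose. Vgll2, a muscle cofactor of TEAD and MEF2 proteins, fell from 267 and 283 counts to 122 and 119, and Mamstr, a coactivator of MEF2, rose from 477 and 517 to 885 and 835. These were larger changes than that of any MEF2 member, with log2 fold changes of -1.24 (standard error 0.14, adjusted p = 0.000101) and 0.74 (standard error 0.09, adjusted p = 0.000203). Both were called under each of the 9 settings that kept all libraries. Mamstr shares 203 exonic bases with A030001D20Rik on the opposite strand. This noncoding RNA had 305 and 269 counts in control and 369 and 384 after EDA-A2, so it was higher in both EDA-A2 libraries. Its part in the counts of Mamstr was not tested. The class II deacetylases that repress MEF2 were not called: Hdac7 was at -0.12, and Hdac4, Hdac5 and Hdac9, chosen after their values were seen, at -0.10, 0.01 and -0.06. Smarcd3, Mapk14 and Sik1 were at -0.22, -0.14 and -0.14. Hdac5, Hdac7 and Smarcd3 share 2826, 2396 and 2466 exonic bases with G6pc3, Slc48a1 and Chpf2 on the opposite strand. Mef2b shares 841 exonic bases with Borcs8 (354 to 384 counts) on its own strand, which limits what its count can show.

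Of 33 textbook targets of the MRFs and MEF2, 32 were tested, 14 fell and 1 rose, and the median over all 32 was -0.27 on the log2 scale. The other 17 did not pass, and over all genes tested 2.13% were called lower. The list was chosen with earlier results of these data known, so its share of calls is a description and no separate evidence. Of the 9 settings that kept all libraries, 3 called Tnni2 and Mb and 5 called Myl1. The other targets that fell were called in 6 to 9. Myh3, Mylpf, Acta1, Actc1 and Xirp1 changed by -0.57, -0.48, -0.52, -0.47 and -0.74 on the log2 scale (adjusted p from 0.000199 to 0.00129). The gene that rose was Mymx, which encodes the fusion peptide myomixer, with 2542 and 2630 counts in control and 6318 and 6227 in EDA-A2 libraries (log2 fold change 1.22, standard error 0.07, adjusted p = 2.95e-08). Among targets chosen after their values were seen, Mymk, the partner of Mymx in fusion, was at -0.01 (-0.17 to 0.14), Des at -0.02 (-0.16 to 0.12) and Cdkn1a, the cell cycle inhibitor induced on differentiation, at 0.00 (-0.14 to 0.15).

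**Figure D4:**
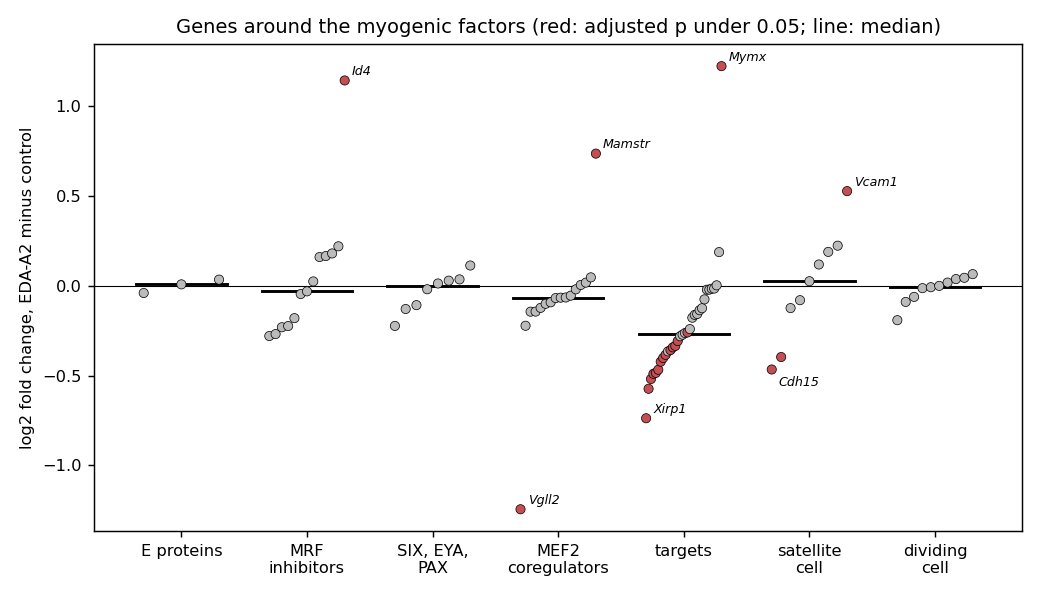
Log2 fold change (EDA-A2 minus control, vertical axis) of each tested gene in 7 lists around the myogenic factors; red marks an adjusted p under 0.05 and lines the list medians. Calls sit mainly among the targets, 14 lower and 1 higher, with Vgll2, Mamstr, Id4 and Mymx farthest from 0 among regulators and fusion genes.

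Markers of satellite cells and myoblasts went in both directions. Of 11, 9 were tested, 1 rose and 2 fell. Calcr and Chrdl2, not tested, were at most at 3 counts in every library. Vcam1, an adhesion molecule that is also an NFκB target, had 1309 ± 167 normalized counts in control and rose to 1888 ± 102 (0.53 on the log2 scale, adjusted p = 0.00250 by edgeR), while Cdh15 (M-cadherin) fell from 3651 ± 424 to 2644 ± 110 (-0.47, adjusted p = 0.00318). Spry1, an inhibitor of growth factor signalling, fell by 0.40 on the log2 scale (adjusted p = 0.0325). Its call was lost under total counts (adjusted p = 0.0725) and by DESeq2 (0.0719). Itga7, Sdc4 and Ncam1, which myotubes also express, were at 0.22, 0.19 and -0.12. Which cells of the cultures gave the transcripts of these markers, Vcam1 and Cdh15 included, was not tested. Among dividing cell markers, Ccnb1, Cdk1, Pcna, Mcm2, Mki67 and Mcm5 lay between -0.19 and 0.07.

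Lists of markers for 5 other cell types were also read. Endothelial markers (5 genes) summed to 1.11 to 1.23 CPM in control and 0.996 to 1.23 CPM in EDA-A2 libraries. Macrophage markers (6 genes) summed to 8.58 to 9.71 and 10.03 to 13.5 CPM, with Adgre1 and Ptprc at most at 3 counts in each library. All 4 adipocyte markers were at most at 3 counts. The Schwann cell list summed to 158 to 172 and 144 to 145 CPM, nearly all from Erbb3, with Sox10 at 0 counts in every library. The fibroblast list summed to 1675 to 1741 and 1598 to 1621 CPM, most of it Col3a1 and Col1a1, while Lum and Thy1 were at 0. None of these 5 lists held a call by edgeR or DESeq2, with Col1a1, Dcn, Cd14 and Erbb3 at an unadjusted p under 0.05. Col1a1 had 9004 and 5046 counts in control and 4769 and 5904 in EDA-A2 libraries. Their part in the values of the myogenic factors was not tested.

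With any control library left out, edgeR called 0 genes of all those tested (2179 and 2448 at an unadjusted p under 0.05 without control replicates 1 and 2), so each call above, Vgll2, Mamstr and Mymx included, was lost there while its direction stayed. With every gene of at least 1 count kept, 2 genes of the lists around the factors were called higher and 3 lower. Id4, Xirp1, Acta1, Actc1, Vcam1, Cdh15 and Spry1 were among those lost. These counts leave out the myotube list and the lists of other cell types, and Actn2 of the myotube list stayed called.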

How the data were processed

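Per the labels, total RNA from 2 control and 2 EDA-A2 samples was made into TruSeq Stranded mRNA libraries. The authors trimmed the read pairs with Trim Galore 0.6.5, mapped them to GRCm39 with STAR 2.7.3a and counted them per gene with HTSeq 0.11.1. The deposited tables, 1 for each library, hold unnormalized counts by Ensembl gene. The annotation release and strand option are not given in the sources used here. HTSeq's summary lines (no feature 6.68% to 7.40%, ambiguous 0.946% to 0.986%, not unique 4.56% to 4.76% of pairs) were left out.

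Gene IDs were matched to GENCODE symbols for 52610 of 53647 genes. Counts were fitted in R 4.3.3 with edgeR 4.0.16 (TMM, filterByExpr with a minimum count of 10 and total of 15, glmQLFit, glmQLFTest) on condition alone, and p-values were adjusted over 15173 genes by Benjamini-Hochberg at 0.05. Standard errors were derived from each log2 estimate and the square root of its F statistic. TPM was computed over genes with a gene model. Alternatives were other scaling factors and filters, protein-coding genes, robust spread, a replicate block, DESeq2 1.42.0, and leaving out each library, where the lone library is assumed to vary like the other condition. The fits were also run on independent libraries simulated from the means and dispersions of this edgeR fit. Such counts cannot show how the fits behave if replicates are technical.

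Members and lists were chosen with earlier results of these data known, and 2 genes of the lists are not reported here. Named genes were all 9 members, up to 6 per list (those past the test first, then the smallest p), and the 3 genes most like a called member. The labels do not say whether replicates came from separate cultures, so p-values measure the spread between these libraries, which may be technical.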

Additional observations from a re-analysis of the deposited data

How the results depend on the processing

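Scaled to total counts, 1 member was called higher (Mef2a) and 194 of all genes were called lower. When genes needed just 1 count to be tested, 0 members were called lower, 2 pathway genes were called higher and 3 lower, and over all genes 64 were called higher and 22 lower; DESeq2's Wald test called 0 members lower. With 1 library left out, members called lower were 0 to 0, pathway genes called higher 0 to 4 and lower 0 to 11, and all genes called higher 0 to 238 and lower 0 to 170. The labels do not say whether replicate numbers pair the libraries, and the deviations of same-numbered libraries had a correlation of 0.0598 over genes. The fit with a replicate block called 537 genes higher and 529 lower, Eya4 (adjusted p = 0.0436) among them. The cause of these shifts was not tested.

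None of the genes whose estimate changed sign was called in the edgeR fit on all libraries. With 1 library left out, log2 fold changes ranged from -0.21 to 0.10 for Myod1, -0.013 to 0.085 for Tcf3, -0.013 to 0.030 for Tcf4, -0.22 to 0.55 for Six2, -0.017 to 0.043 for Eya3, -0.24 to 0.079 for Cdk1, -0.053 to 0.15 for Mki67 and -0.048 to 0.12 for Mcm5. Tcf12 was at 0.015 under total counts. Of the other values for single genes, 566 kept their side of the threshold, 41 lost a call and 5 gained one. Itga7 gained its call under total counts (adjusted p = 0.0203) and DESeq2 (0.0302), and Sdc4 under total counts (0.0424). Genes named outside that rule changed sign too. With 1 library left out, Hdac9, with 327 and 636 counts in control, ranged from -0.45 to 0.48. Col1a1, at -0.46 with all libraries kept, ranged from -0.82 to 0.04. The ranges were -0.033 to 0.048 for Hdac5, -0.084 to 0.052 for Mymk, -0.046 to 0.007 for Des and -0.039 to 0.050 for Cdkn1a. The median standard error over all genes was 0.103, and that of Myf5, with 39 to 53 counts, was 0.28.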
